A study of Homo sapiens with 6 samples.

Results

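The 10 tubulin genes TUBA1A, TUBA1B, TUBA1C, TUBA4A, TUBB2A, TUBB2B, TUBB3, TUBB4B, TUBB6 and TUBG1 were followed in Ishikawa, a cell line from a human endometrial cancer, by their symbols among the 58735 genes of the deposited count table. RNA was taken 48 h after lipofection. The siNC group (3 libraries) received a negative control siRNA and the siTCF19 group (3 libraries) one that targets TCF19. All 6 libraries come from this 1 line, grown in the same medium with serum, and both groups went through transfection. Of the 10 genes, 9 passed the filter on low counts (edgeR's filterByExpr) and were tested, and TUBB3 was below it. Relative to siNC, TUBA4A and TUBB6 rose in siTCF19, TUBA1B and TUBB4B fell, and TUBA1A, TUBA1C, TUBB2A, TUBB2B and TUBG1 were not called.

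Microtubules are polymers of a dimer of alpha-tubulin and beta-tubulin, and each subunit is made from several genes whose products, called isotypes, differ mainly in a short acidic tail at the end of the protein. TUBA1A, TUBA1B, TUBA1C and TUBA4A encode alpha-tubulins, TUBB2A, TUBB2B, TUBB3, TUBB4B and TUBB6 encode beta-tubulins, and TUBG1 encodes gamma-tubulin, which nucleates microtubules at the centrosome and elsewhere. TUBA1A, TUBB2A, TUBB2B and TUBB3 are best known from neurons, and TUBA1B, TUBA1C and TUBB4B from dividing cells of many kinds. New tubulin chains are folded by the chaperonin CCT with prefoldin and the tubulin cofactors, and cells destroy alpha- and beta-tubulin mRNAs on ribosomes when free tubulin is in excess.

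The end of the coding sequence encodes the tail in which isotypes can differ. The last 63 coding bases are therefore shown for 4 beta-tubulin genes, read 5′ to 3′ on the coding strand from GENCODE release 29 transcripts of build GRCh38 and ending in the stop codon. Capitals mark the last codon before the stop.
TUBB2A: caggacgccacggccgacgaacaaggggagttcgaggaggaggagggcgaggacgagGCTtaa
TUBB2B: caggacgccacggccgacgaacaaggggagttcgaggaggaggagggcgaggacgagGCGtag
TUBB4B: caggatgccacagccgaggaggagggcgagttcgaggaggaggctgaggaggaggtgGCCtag
TUBB6: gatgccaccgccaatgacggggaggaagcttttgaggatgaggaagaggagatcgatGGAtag

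TUBB2A and TUBB2B carry the same run up to the codon in capitals, and TUBB4B and TUBB6 each carry a run of their own. The marked codons of TUBB2A (GCT) and TUBB2B (GCG) both encode alanine, so this stretch encodes the same residues in both genes. Over whole coding sequences, TUBA1A and TUBA1B were 97.2% identical, TUBA1A and TUBA1C 96.3%, and TUBA1B and TUBA1C 97.3%. TUBA4A stood apart from these with identities of 85% to 86.3%. TUBB2A and TUBB2B were 98.1% identical, whereas TUBB4B and TUBB6, the beta-tubulin genes that moved in opposite directions, were 83.4% identical. TUBG1 was 94.7% identical to TUBG2, the second gamma-tubulin gene.

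The opening of the coding sequence encodes the first residues of the nascent chain, which the factor TTC5 recognises on the ribosome when alpha- and beta-tubulin mRNAs are destroyed. The first 12 coding bases of 5 genes are shown, those of the alpha- and beta-tubulin genes for that reason and those of TUBG1 only for comparison. Capitals are used throughout because all bases belong to this stretch.
TUBA1B: ATGCGTGAGTGC
TUBA4A: ATGCGTGAATGC
TUBB4B: ATGAGGGAAATC
TUBB6: ATGAGGGAGATC
TUBG1: ATGCCGAGGGAA
TUBA1A and TUBA1C begin with the TUBA1B run, and TUBB3 begins with the TUBB6 run.

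Near-identical sequence limits which gene a read can be assigned to, and so does overlap with a gene on the opposite strand if counting ignores strand. Each main transcript was therefore cut into all its words of 100 bases. These were looked up in the transcripts of every other gene, read on both strands. The shares below include such overlap only where a whole word of the main transcript matches, and miss overlap in a gene's other annotated exons. The share of words also found elsewhere was 0% for TUBB6, 4.49% for TUBB4B, 14.9% for TUBG1, 26.6% for TUBA1A, 27.4% for TUBA4A, 29.6% for TUBA1C, 46.2% for TUBB2B, 56.4% for TUBB2A, 71.1% for TUBA1B and 89% for TUBB3. For TUBB2A and TUBB2B the shared words were mostly each other's. For TUBA1B the largest part (999 words) lay in AC011603.2, an annotated antisense gene that held 3 to 15 counts per library. For TUBA4A it lay in STK16 (528 words) and for TUBA1C in AC125611.3 (539 words), both on the opposite strand. For TUBB3 it lay in AC092143.1, an annotated readthrough gene that held 0 counts in all 6 libraries. TUBB6 and TUBB4B shared the fewest words, though TUBB6 overlaps another gene on the opposite strand over 20.3% of its exon bases and TUBB4B over 5.87%, where TUBB2A has no such overlap.

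**Figure D1:**
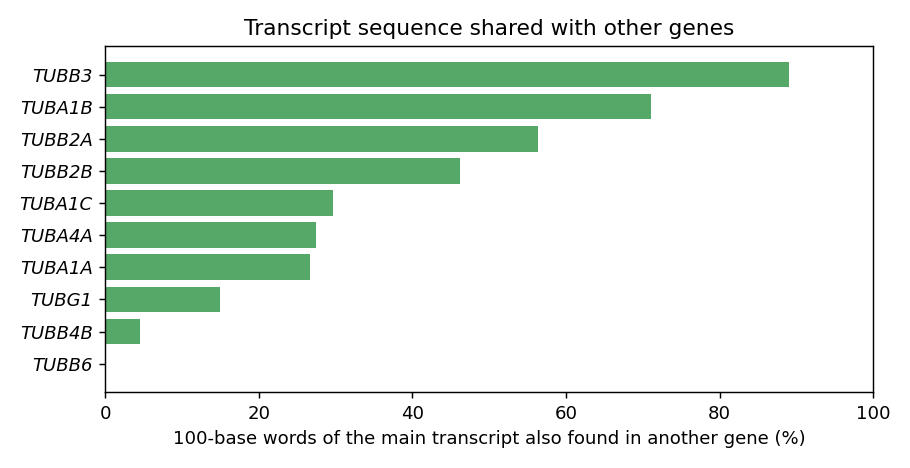
Percent of the 100-base words of each gene's main transcript that also occur, on either strand, in a transcript of another gene, as 1 bar per gene. TUBB6 (0%) and TUBB4B (4.49%) share least, and TUBA1B (71.1%) and TUBB3 (89%) share most.

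Library totals ran from 14680022 to 16244705 counts, and 3 counts, the limit that a count of 0 allows, equal 0.19 to 0.206 CPM (CPM is a count scaled to the TMM-adjusted library size). The targeted gene TCF19 fell from 176.8, 184.9 and 176.8 CPM in siNC to 42.71, 35.33 and 39.07 CPM in siTCF19 (log2 fold change -2.20 ± 0.06 SE, adjusted p = 6.15e-29), in the direction of the labels. Of 10 epithelial and endometrial markers, 8 were tested and their summed level was 3098 to 3240 CPM in siNC and 3008 to 3154 CPM in siTCF19. ESR1 and PGR, the hormone receptor genes of the list, were below the filter, with group means of 0.04335 to 0.1553 CPM. The labels do not state whether separate cultures lie behind the libraries, and every p-value reflects only how far these libraries spread, which could be technical variation. In these bulk samples, fewer cells of a type and less RNA per cell cannot be told apart.

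Over all 17299 tested genes, 41.5% were called (edgeR quasi-likelihood test, adjusted p under 0.05), 20.7% as higher and 20.8% as lower in siTCF19. Among the 9 tested tubulin genes, 2 were called higher, 2 lower and 5 were not called, which is close to that background and is no result about the group as a whole. Their median log2 fold change was -0.10, beside 0.000908 over all tested genes, and none changed 2-fold or more. The 3 siNC libraries lay apart from the 3 siTCF19 libraries for 5 of the 9, against 49.2% of all tested genes. The genes are described by subunit.

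**Figure D2:**
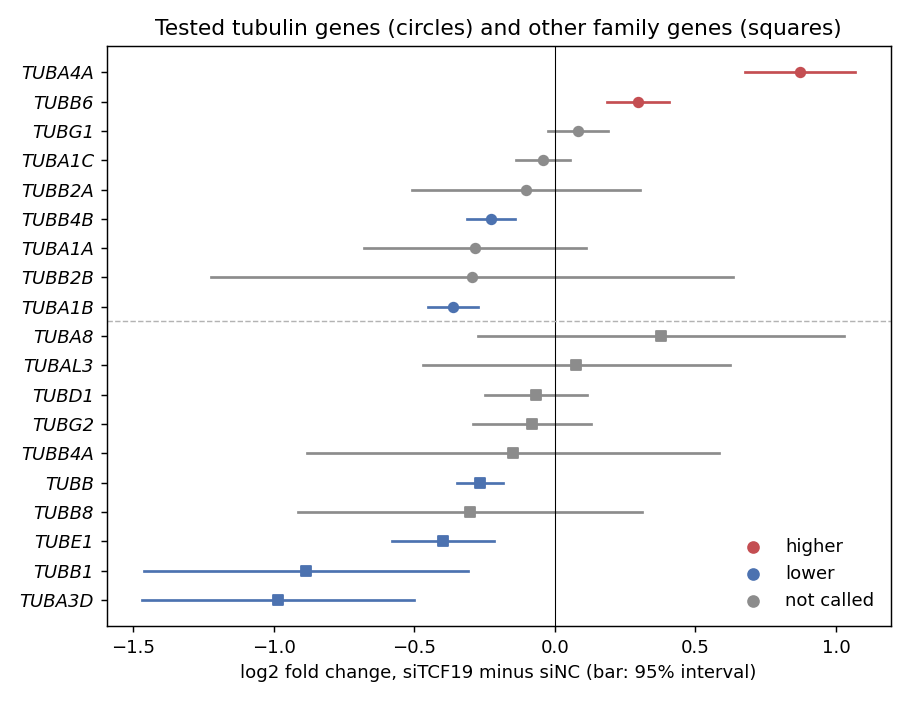
Log2 fold change (siTCF19 minus siNC, horizontal axis) of the 9 tested tubulin genes (circles) and of 10 other tubulin genes (squares), with 95% intervals as bars and calls by colour. TUBA4A (0.87) and TUBB6 (0.30) lie right of 0, and TUBA1B (-0.36) and TUBB4B (-0.23) left of it.

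Among the alpha-tubulin genes, the most abundant fell and a minor one rose. TUBA1B lies on the minus strand of chromosome 12 at chr12:49127782-49131397 (hg38), beside TUBA1A and TUBA1C. Its level was 839.8, 944.7 and 897.4 CPM in siNC and 709.6, 682.8 and 694.7 CPM in siTCF19. Every siTCF19 library was below every siNC library, and the fall was 0.36 on the log2 scale (SE 0.0434, adjusted p = 4.53e-09), to 0.778 of the siNC level. Words shared with AC011603.2 and with the other TUBA1 genes leave some of its reads uncertain.

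TUBA4A, on the minus strand at chr2:219249711-219278170, is the least like the others of the 4 alpha-tubulin genes in its coding sequence. It had 14.64, 13.3 and 14.44 CPM in siNC and 23.6, 26.18 and 27.73 CPM in siTCF19. All siTCF19 libraries were above all siNC libraries. The fold was 1.83 (log2 fold change 0.87 ± 0.097 SE, 95% interval 0.68 to 1.07, adjusted p = 7.33e-10), the greatest change among the 9 tested tubulin genes. Over 627 exon bases TUBA4A overlaps STK16, a kinase gene on the opposite strand, and whether the counting used strand is not known here. STK16 itself was not called (log2 fold change -0.11, adjusted p = 0.269), with 546 to 701 counts in siNC and 537 to 579 in siTCF19.

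TUBA1C, on the plus strand at chr12:49188736-49274603, had 296.5, 317.1 and 299.4 CPM in siNC and 276.2, 308.9 and 302.8 CPM in siTCF19. The groups overlapped, and the gene was not called (log2 fold change -0.04, 95% interval -0.14 to 0.06, adjusted p = 0.535). TUBA1A, on the minus strand at chr12:49184796-49189324, had 3.986, 4.137 and 4.748 CPM in siNC and 2.91, 3.807 and 3.869 CPM in siTCF19. Its siTCF19 libraries were all below its siNC libraries, yet it was not called (log2 fold change -0.28, 95% interval -0.68 to 0.11, adjusted p = 0.259). TUBA1A and TUBA1C overlap on opposite strands over 490 exon bases, so some reads of these genes cannot be told apart without strand.

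Because TUBA1A, TUBA1B and TUBA1C are near-identical, their counts were also summed to 1 row and the whole table was fitted again. The sum was 1140, 1266 and 1202 CPM in siNC and 988.7, 995.5 and 1001 CPM in siTCF19. It was lower in siTCF19 by a log2 fold change of -0.27 ± 0.0416 SE (adjusted p = 7.107e-07). TUBA1B makes up most of this sum, and how reads that match several genes were counted is not known here.

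The beta-tubulin genes repeated this arrangement of an abundant gene that fell and a minor gene that rose. TUBB4B, on the plus strand at chr9:137241213-137243707, had 902.5, 987.1 and 945.9 CPM in siNC and 830.8, 779.7 and 811.1 CPM in siTCF19. The groups did not overlap, and the level fell by 0.23 on the log2 scale (SE 0.0425, adjusted p = 2.45e-05), to 0.854 of the siNC level. FAM166A, which overlaps 124 of its exon bases on the opposite strand, held 5 to 9 counts in siNC and 12 to 14 in siTCF19.

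TUBB6, a beta-tubulin gene on the plus strand at chr18:12307669-12344320, had 76.56, 78.1 and 78.08 CPM in siNC and 93.07, 95.85 and 96.85 CPM in siTCF19. The libraries of each group lay close together and the groups did not overlap. The fold was 1.23 (log2 fold change 0.30 ± 0.055 SE, adjusted p = 2.27e-05). AFG3L2, a mitochondrial protease gene that overlaps 837 of its exon bases on the opposite strand, was not called (log2 fold change -0.11, adjusted p = 0.0922).

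TUBB2A, on the minus strand at chr6:3153669-3157526, had 5.704, 3.564 and 3.529 CPM in siNC and 3.606, 4.074 and 4.191 CPM in siTCF19. One siNC library was high and the other 2 lay below all siTCF19 libraries. The gene was not called (log2 fold change -0.10, 95% interval -0.51 to 0.30, adjusted p = 0.724), and without siNC replicate 1 the log2 fold change was 0.16. TUBB2B, its near-identical neighbour on the minus strand at chr6:3224261-3231730, had 0.5498, 0.9547 and 0.6416 CPM in siNC and 0.3796, 0.7347 and 0.6448 CPM in siTCF19. It was not called, and its 95% interval of -1.22 to 0.63 on the log2 scale shows how little its depth resolves. TUBB2A and TUBB2B summed to 1 row had a log2 fold change of -0.13 (SE 0.1834, adjusted p = 0.614).

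TUBB3, the beta-tubulin gene used as a neuronal marker, lies on the plus strand at chr16:89921392-89938761 and was close to the floor. It held 5, 10 and 3 counts in siNC and 1, 12 and 3 in siTCF19. In both groups 1 library was higher than the others, and a difference between the groups was not detectable at this depth.

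Gamma-tubulin was the subunit class in which neither gene was called. TUBG1, on the plus strand at chr17:42609676-42615234, had 178.7, 195.3 and 170.5 CPM in siNC and 182.2, 190.4 and 204.2 CPM in siTCF19. The groups overlapped (log2 fold change 0.08, 95% interval -0.02 to 0.19, adjusted p = 0.213). The gene would have been called without siNC replicate 2 (log2 fold change 0.14, adjusted p = 0.0389) or with libraries scaled by their totals only (0.14, adjusted p = 0.02). TUBG2 had 16.91, 16.74 and 15.08 CPM in siNC and 14.87, 14.69 and 16.44 CPM in siTCF19 and was not called (log2 fold change -0.08, adjusted p = 0.566). RETREG3, an endoplasmic reticulum gene that overlaps 139 exon bases of TUBG1 on the opposite strand, fell by 0.22 on the log2 scale (adjusted p = 0.0177).

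Levels of different genes were compared in FPKM (fragments per kilobase, scaled to library size), which divides by the length of all annotated exons of a gene. That length was 2111 bases for TUBB4B and 3574 for TUBA1B, where their main transcripts have 1637 and 1627 bases. The gap between these genes in FPKM depends on this length. In CPM they had 945.1 ± 42.31 and 894 ± 52.5 in siNC and 807.2 ± 25.79 and 695.7 ± 13.47 in siTCF19 (SD, n = 3). TUBB4B led in both groups, at 443.8 ± 19.9 FPKM in siNC and 378.9 ± 13.7 in siTCF19 (SD, n = 3). TUBA1B followed with 247.9 ± 14.6 and 192.9 ± 4.61, then TUBG1 with 74.62 ± 5.38 and 79.0 ± 4.47, TUBA1C with 65.13 ± 2.48 and 63.31 ± 3.47, and TUBB6 with 18.68 ± 0.196 and 22.92 ± 0.411. TUBA4A had 3.432 ± 0.172 FPKM in siNC and 6.274 ± 0.491 in siTCF19. The lowest 4 were TUBB2A, TUBA1A, TUBB2B and TUBB3, with TUBB3 at 0.08754 ± 0.0507 FPKM in siNC and 0.07863 ± 0.0876 in siTCF19. The order of the 10 genes was the same in both groups. In siNC only the neighbours TUBA4A and TUBB2A had overlapping ranges, and in siTCF19 only TUBB2B and TUBB3 did.

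**Figure D3:**
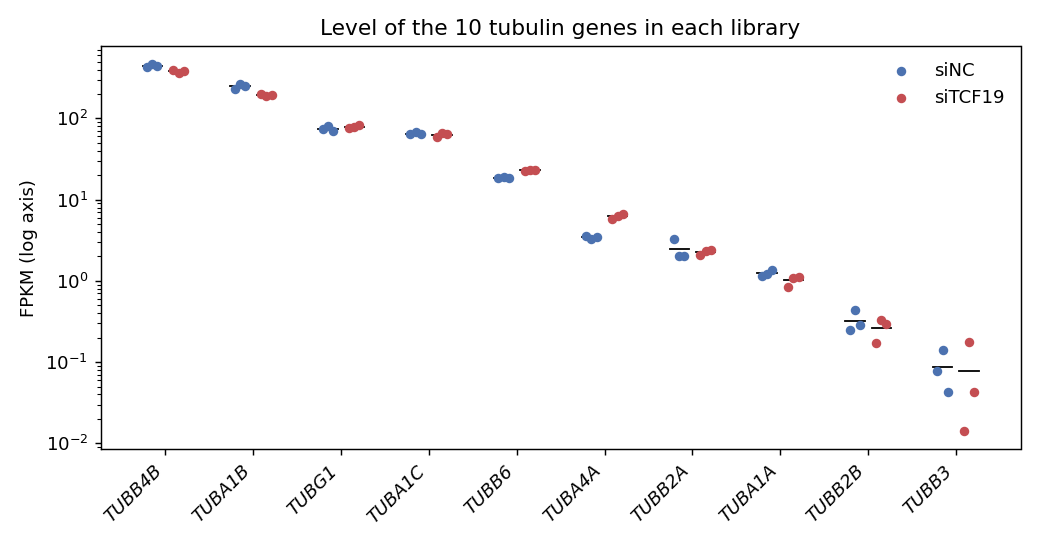
Level of the 10 tubulin genes in FPKM on a log axis, with 1 point per library (3 siNC in blue, 3 siTCF19 in red) and a black line at the group mean. TUBB4B is highest and TUBB3 lowest in both groups, and for TUBA4A and TUBB6 the siTCF19 points lie above the siNC points.

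Summed over the alpha-tubulin genes of the table, the level was 305.6, 338.6 and 321.9 FPKM in siNC and 266.3, 264.8 and 268.3 FPKM in siTCF19. The beta-tubulin sum was 810.5, 865.8 and 827.4 FPKM in siNC and 726.5, 685.7 and 720.4 FPKM in siTCF19. The alpha and beta sums rest on the annotated exon lengths and are not compared with each other. For both sums the siTCF19 libraries lay below the siNC libraries, and the exact two-sided permutation test gave p = 0.1, the smallest that 3 against 3 libraries allow. Over the 20 sums and shares tested in this way the adjusted value was 0.222, so this test cannot pass 0.05 here for any of them.

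Within the alpha-tubulin sum, TUBA1B took 76.97% ± 0.598 in siNC and 72.37% ± 1.6 in siTCF19 (SD, n = 3; exact permutation p = 0.1, adjusted 0.222). TUBA1C took 20.24% ± 0.498 and 23.76% ± 1.33, and TUBA4A 1.069% ± 0.106 and 2.354% ± 0.177, with the same p. In all 3 cases the groups did not overlap. Within the beta-tubulin sum, TUBB4B took 53.16% ± 0.69 in siNC and 53.29% ± 0.541 in siTCF19 (exact permutation p = 0.9, adjusted 1), and the groups overlapped. TUBB6 took 2.239% ± 0.0555 in siNC and 3.227% ± 0.127 in siTCF19, again without overlap. The shares of TUBA4A and TUBB6 follow from the rise of these genes and the fall of the class sums, and add no separate support.

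Ratios of the deposited FPKM values within a library do not depend on library scaling. TUBA4A over TUBA1B was 0.01527, 0.01234 and 0.01409 in siNC and 0.02914, 0.0336 and 0.03497 in siTCF19. TUBA1C over TUBA1B was 0.2724, 0.2591 and 0.2574 in siNC and 0.3003, 0.3492 and 0.3363 in siTCF19. TUBB6 over TUBB4B was 0.0435, 0.04057 and 0.04233 in siNC and 0.05744, 0.06303 and 0.06122 in siTCF19. TUBG1 over TUBG2 was 12.15, 13.42 and 13.0 in siNC and 14.09, 14.89 and 14.28 in siTCF19. All 4 ratios were higher in each siTCF19 library than in any siNC library (exact two-sided permutation p = 0.1 for each, the smallest possible, and 4 ratios were computed). TUBA4A over TUBA1B and TUBB6 over TUBB4B each divide a gene called higher by one called lower, both without overlap. Their outcome was therefore fixed, and they restate those calls without adding support. TUBA1C was not called, so its ratio mainly follows the fall of TUBA1B.

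**Figure D4:**
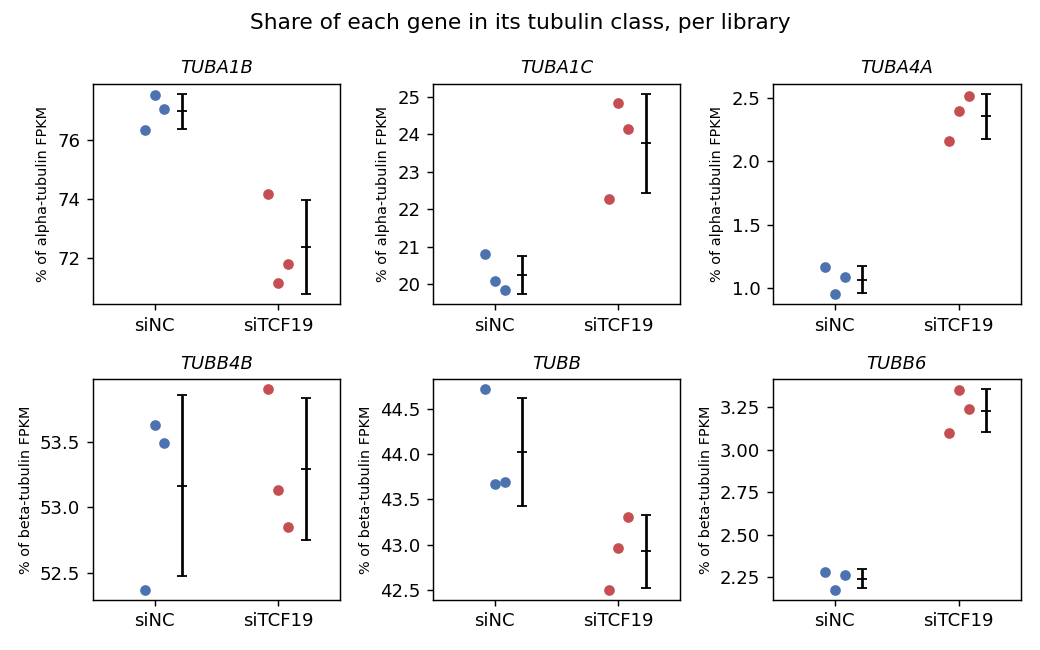
Share of 6 genes in the summed FPKM of their tubulin class, in percent, with 1 point per library and the mean ± SD beside the points; each panel has its own vertical axis, which does not start at 0. TUBA4A went from a mean of 1.069% to 2.354% and TUBB6 from 2.239% to 3.227%, while the groups of TUBB4B (53.16% and 53.29%) overlap.

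Of the 12 other tubulin genes of the table, 10 were tested, 4 were called lower and none higher (none also at an unadjusted p under 0.05, and none in DESeq2), with a median log2 fold change of -0.21. TUBB, which took 44.03% of the beta-tubulin FPKM in siNC and 42.92% in siTCF19, had 1226, 1279 and 1229 CPM in siNC and 1042, 1003 and 1058 CPM in siTCF19 and fell by 0.27 on the log2 scale (SE 0.0403, adjusted p = 5.84e-07). TUBE1, which encodes the centriolar epsilon-tubulin, fell from 27.76 ± 1.335 to 21.05 ± 2.107 CPM (adjusted p = 0.000331). TUBA3D fell from 4.065 ± 1.203 to 2.058 ± 0.3607 CPM (adjusted p = 0.000836), and TUBB1, the beta-tubulin gene of platelets, from 2.709 ± 0.6658 to 1.466 ± 0.4333 CPM (adjusted p = 0.0111). TUBB1 held 16 to 52 counts per library and overlaps ATP5F1E, on the opposite strand, over 1188 exon bases (34%). Some of these reads may therefore belong to ATP5F1E, since whether the counting used strand is not known here. The TUBB1 call was lost in DESeq2 (adjusted p = 0.0661), without siNC replicate 2 (0.0862), without siTCF19 replicate 3 (0.081) and at an adjusted p under 0.01. TUBA8, TUBAL3, TUBB4A, TUBB8 and TUBD1 were not called, with log2 fold changes from -0.30 (TUBB8) to 0.38 (TUBA8). Single libraries move these ends: TUBB8 was at 0.07 without siNC replicate 3 and -0.69 without siTCF19 replicate 3, and TUBA8 at 0.11 without siTCF19 replicate 1 and 0.62 without siTCF19 replicate 2. Other genes overlap 50.7% of the exon bases of TUBA8. TUBA3E was below the filter and TUBA3C had 0 counts in all libraries.

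The counts of the gene groups that follow were not tested as groups, and each is to be read beside the 20.7% of all tested genes called higher and the 20.8% called lower. Of 21 tested genes that fold new tubulin, 10 fell, 1 rose and 10 were not called, with a median log2 fold change of -0.16. Of the 8 genes of the CCT chaperonin ring, TCP1 was not called and the other 7 fell. CCT2 fell from 562.0 ± 2.804 to 394.3 ± 5.806 CPM (log2 fold change -0.51, adjusted p = 2.51e-13), CCT7 from 424.6 ± 11.62 to 310.7 ± 5.408 CPM (-0.45, adjusted p = 2.51e-11) and CCT3 from 591.0 ± 19.6 to 436.1 ± 12.41 CPM (-0.44, adjusted p = 3.45e-11). VBP1, a prefoldin subunit, rose by 0.14 on the log2 scale (adjusted p = 0.0387), a call that was lost with the replicate block, in DESeq2, in both limma-trend fits, with no filter, at an adjusted p under 0.01, and without siNC replicate 2 or siTCF19 replicate 1. Among the genes of tubulin mRNA destruction, 9 were tested, 1 rose, 2 fell and 6 were not called. TTC5, which reads the nascent chain, was not called. SCAPER, which links TTC5 to the CCR4-NOT deadenylase, rose by 0.24 (adjusted p = 0.048), and the deadenylase subunit genes CNOT10 (-0.21, adjusted p = 0.0147) and CNOT7 (-0.15, adjusted p = 0.0321) fell. The SCAPER call was lost with the replicate block, in DESeq2, in limma-voom, in both limma-trend fits, with no filter, at an adjusted p under 0.01, and without siNC replicate 1 or siTCF19 replicate 2, and 1 of the CNOT calls was lost in DESeq2, in both limma-trend fits and on leaving out any library but siNC replicate 2. Both CNOT calls were lost with libraries scaled by their totals only and at an adjusted p under 0.01.

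Of 21 tested genes of the gamma-tubulin ring complex and its anchors, 8 fell, 3 rose and 10 were not called, with a median of -0.11. Among all tested genes, 20.8% were called lower and 20.7% higher, so lower calls were a larger share of this list and higher calls a smaller one. That difference was not tested, and the lower calls ran from 4 to 9 over the alternatives. The small ring subunit genes MZT2A and MZT2B fell from 87.11 ± 7.238 to 61.76 ± 5.226 CPM (adjusted p = 3.13e-08) and from 60.22 ± 2.731 to 43.16 ± 1.725 CPM (adjusted p = 7.72e-08). These 2 genes are close copies of each other, so how their reads were split is uncertain. TUBGCP4 fell by 0.29 (adjusted p = 2.39e-05) and TUBGCP5, another ring subunit, rose by 0.26 (adjusted p = 0.000608). AKAP9, a Golgi and centrosome anchor, rose by 0.17 (adjusted p = 0.0166), and HAUS8, of the augmin complex that branches microtubules, by 0.23 (adjusted p = 0.0171). The 8 lower calls became 5 without siNC replicate 2, 5 without siNC replicate 3 and 4 without siTCF19 replicate 1, and the 3 higher calls became 2 without siNC replicate 3 and 1 without siTCF19 replicate 1.

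Of 17 tested genes for tubulin-modifying enzymes and their partners, 6 rose, 2 fell and 9 were not called (median 0.05). The share called was near the 41.5% called over all tested genes. TTLL7, which adds glutamate chains to tubulin tails, rose from 12.51 ± 1.544 to 24.28 ± 1.127 CPM (log2 fold change 0.96, adjusted p = 2.54e-10). The tubulin deacetylase genes HDAC6 (0.41, adjusted p = 8.67e-07) and SIRT2 (0.28, adjusted p = 3.47e-05) also rose. TTLL12 fell from 181.2 ± 11.4 to 105.2 ± 8.683 CPM (-0.79, adjusted p = 3.12e-15), and the glutamylase gene TTLL1 fell from 2.012 to 1.075 CPM (adjusted p = 0.0247). The 2 lower calls became 1 when siNC replicate 1 or 2, or siTCF19 replicate 2 or 3, was left out. TTL, the tubulin tyrosine ligase gene, was not called.

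Microtubule-associated and plus-end protein genes held the widest changes of these groups: of 24 tested, 10 rose, 4 fell and 10 were not called (median 0.08), and 4 changed at least 2-fold. MAP1A, a structural microtubule binder, had 41.44, 44.68 and 40.74 CPM in siNC and 118.1, 106.3 and 108.9 CPM in siTCF19 (log2 fold change 1.39 ± 0.0616 SE, adjusted p = 5.64e-22). MAP1B rose from 5.728 ± 1.053 to 15.47 ± 1.752 CPM (1.43, adjusted p = 1.43e-11), and CLIP1, a plus-end tracking protein, by 0.41 (adjusted p = 4.2e-08). DCLK1, a doublecortin-family microtubule kinase, fell from 25.78 ± 0.9656 to 8.764 ± 0.8098 CPM (-1.56, adjusted p = 5.12e-16). STMN3, of the stathmins that bind free tubulin, fell by 0.99 (adjusted p = 5.71e-13) and MAPRE2, a plus-end binding protein, by 0.88 (adjusted p = 1.03e-09). Of the severing and depolymerising enzymes, 1 of 12 tested rose, 3 fell and 8 were not called. KATNAL1, a katanin-like severing enzyme, rose from 19.38 ± 0.7545 to 31.55 ± 0.5752 CPM (0.70, adjusted p = 4.63e-09). KIF2C (-0.20, adjusted p = 0.00148), KIF2A (-0.18, adjusted p = 0.0216) and SPAST (-0.18, adjusted p = 0.0228) fell. The single higher call became 2 when any siNC library or siTCF19 replicate 1 was left out, and 4 when siTCF19 replicate 3 was. The 3 lower calls became 2 without siNC replicate 1, and 1 when siNC replicate 3, or siTCF19 replicate 1 or 3, was left out.

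**Figure D5:**
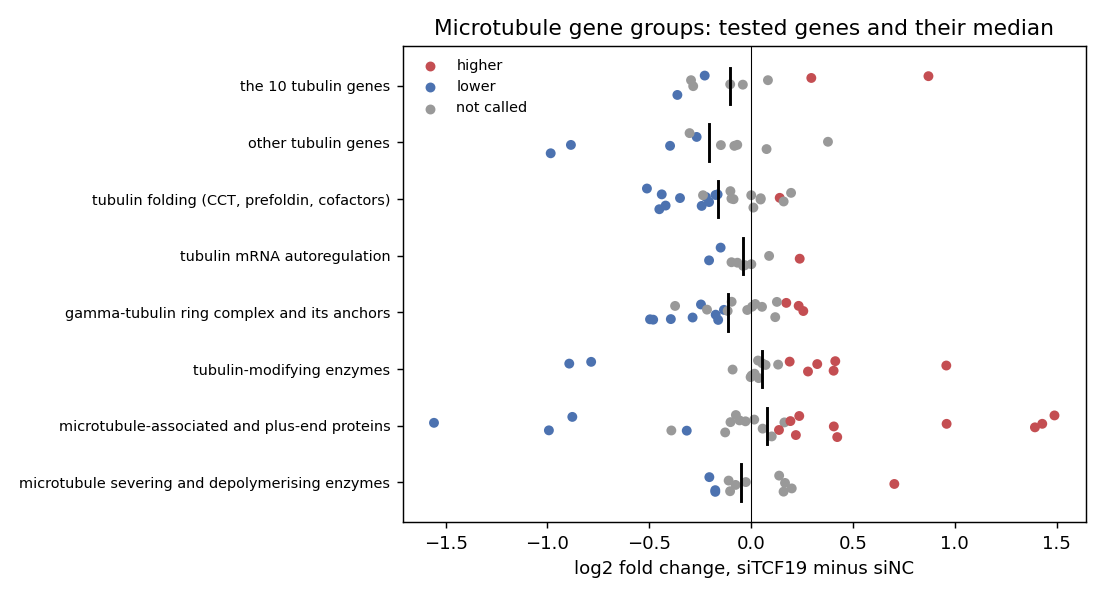
Log2 fold change (siTCF19 minus siNC) of each tested gene in the 8 microtubule gene groups, with 1 point per gene, calls by colour and a black bar at each group's median. The 9 tested tubulin genes run from -0.36 to 0.87, and the microtubule-associated and plus-end protein genes from -1.56 (DCLK1) to 1.49 (MAP2).

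Markers of other cell types were read beside the tubulin genes, since several of these genes are best known from neurons. Of 13 neuron markers, 11 were under 1 CPM and 2 were tested: MAP2, which is also among the microtubule-associated genes above, rose from 0.8679 to 2.462 CPM (adjusted p = 0.000545), and INA fell from 39.3 to 33.94 CPM (adjusted p = 0.0171). The INA call was lost when siNC replicate 3, or siTCF19 replicate 1 or 3, was left out. It was also lost in DESeq2, with libraries scaled by their totals only and at an adjusted p under 0.01. All 13 neuron markers summed to 41.12 to 42.73 CPM in siNC and 36.89 to 39.74 CPM in siTCF19. INA made up most of this sum, so its fall is mainly that of 1 gene. NEFL, NEFM, DCX, ELAVL4 and STMN2 were at 0 in all 6 libraries. Ciliated cell markers summed to 61.16 to 72.24 CPM in siNC and 48.22 to 54.73 CPM in siTCF19, with 7 of 13 tested and FOXJ1, the regulator of motile cilia, lower by a log2 fold change of -0.72 (adjusted p = 1.31e-07). That call was joined by a second ciliated marker without siNC replicate 1 or siTCF19 replicate 3. CAPS (34.4 CPM in siNC and 29.93 CPM in siTCF19, not called) and FOXJ1 made up most of the ciliated sum. Among epithelial markers CDH1 (0.61), SOX17 (0.55) and KRT19 (0.44) rose while KRT18 (-0.43) and KRT8 (-0.40) fell. Stromal markers summed to 178.5 to 181.4 CPM in siNC and 126.5 to 135.8 CPM in siTCF19, with 3 of 8 tested, COL1A1 higher (0.58), COL1A2 lower (-0.66) and DCN at 0 in all 6 libraries and LUM at 0 in 5 of them. COL1A2 (160.5 CPM in siNC and 101.5 CPM in siTCF19) made up most of the stromal sum, so its fall is mainly that of 1 gene. Leukocyte and endothelial markers summed to 7.129 to 9.303 CPM in siNC and 14.11 to 17.67 CPM in siTCF19, with 2 of 8 tested, VWF higher (from 5.133 to 15.54 CPM) and CDH5 lower (from 0.9782 to 0.259 CPM). VWF made up most of this sum. CDH5 passed the filter through its siNC libraries, and its siTCF19 libraries (0.3164, 0.2672 and 0.1934 CPM) were near the floor. The lower calls of this list went from 1 to 0 with a filter of at least 1 CPM in 3 libraries, and to 3 with no filter. The part of these markers in the tubulin results was not tested.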

How the data were processed

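The authors deposited 1 table that gives every library a column of whole-number counts and a column of FPKM, per the file headers. The submitters' processing notes name HISAT2 2.0.5, featureCounts 1.5.0-p3 and the build hg38. The sources used here do not give the strand setting, the handling of multi-mapping reads or the read length. Identifiers, starts and ends of the 58735 genes were equal to GENCODE release 29. Dividing counts by gene length and library size gave back the deposited FPKM to a relative deviation of at most 2.6e-08.

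Counts were tested over the whole table with edgeR 4.0.16 in R 4.3.3: filterByExpr left 17299 genes, TMM scaling was applied, and glmQLFit and glmQLFTest had the group as the only term. Benjamini-Hochberg adjustment ran over those genes, and an adjusted p under 0.05 made a call. Log2 fold changes carry standard errors, intervals are 95% intervals, and a floor of 3 counts covers counting error only. Library totals were 14872698, 16244705 and 15815632 counts in siNC and 15529688, 14680022 and 15239315 in siTCF19. Every pair of libraries differed by more than sampling noise, so none was merged. Shares and ratios of FPKM were compared by exact permutation tests over libraries. Alternatives used DESeq2 1.42.0, limma 3.58.1, other scalings and filters, and each library left out in turn. Further alternatives, protein-coding genes only and overlapping genes added to the summed row, were chosen after seeing the data. The edgeR steps were tested on simulated data. Coding sequences were read from the transcripts and aligned with biopython 1.88 in Python 3.11.15, and figures were drawn with matplotlib 3.10.9. The ends of the alpha-tubulin coding sequences are not reported here.

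The 10 members and the gene lists were chosen with earlier results of these data known. Genes named in the text were the 10 members, every other tubulin gene that passed the filter, TCF19 and, of each list, the 3 called genes of lowest p in each direction. Others named were chosen after their values were seen: genes that overlap a member, TUBA3C, TUBA3E, TCP1, TTC5, TTL, CAPS, and markers at or near 0. ATP5F1E was named only for its overlap with TUBB1.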

Additional observations from a re-analysis of the deposited data

How the results depend on the processing

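Over 18 alternatives (other scalings, filters, tests, thresholds and gene sets, the replicate block, and each library left out) TUBA1B, TUBB4B, TUBA4A and TUBB6 kept their direction and their call, with log2 fold changes of -0.40 to -0.30, -0.26 to -0.17, 0.71 to 0.94 and 0.28 to 0.36. The count of tubulin genes called higher ran from 2 to 3, TUBG1 being the third, and the count called lower was 2 throughout. The sum of TUBA1A, TUBA1B and TUBA1C stayed lower in its 11 alternatives (-0.31 to -0.21). The median log2 fold change of the tested tubulin genes, -0.10, ran from -0.2035 (without siNC replicate 3) to -0.0335 (without siTCF19 replicate 1) as libraries were left out. Scaling by library totals only made 61.35% of all called genes higher, against 49.92% with TMM, moved the median of all genes to 0.0611 and put TUBA1C at 0.02, not called. As a share of counts instead of FPKM, TUBB6 differed by 1.492 percentage points instead of 0.9876. The samples share only replicate numbers. After each gene's group mean was subtracted from its log2 level, the remaining deviations of same-numbered siNC and siTCF19 libraries correlated at 0.0134, -0.0513 and 0.00565. The deviations of no siNC library correlated best with those of its own number. Means of 3 libraries constrain these deviations. With the replicate block, 2 tubulin genes were called higher and 2 lower, the median was -0.09 and 6874 instead of 7183 genes were called, and the lower calls of the gamma-tubulin complex list went from 8 to 5, and the single higher calls of the folding list (VBP1) and the mRNA destruction list (SCAPER) were lost. In the lists of folding, mRNA destruction, gamma-tubulin partners and severing enzymes, higher calls ranged over 0 to 3, 0 to 2, 1 to 4 and 1 to 5, and lower calls over 9 to 11, 0 to 2, 4 to 9 and 1 to 3. Depth limits TUBB3 and TUBB2B, whose libraries hold few counts.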
